A study of Arabidopsis thaliana with 20 samples.

Results

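TRY (TRIPTYCHON, AT5G53200) and AN (ANGUSTIFOLIA, AT1G01510) are a pair of Arabidopsis thaliana genes that act in the leaf epidermis, and their transcripts were followed over leaf age, leaf genotype and seedling genotype. Both were chosen by name, with earlier results of these data known. Each had 1 probe set paired with it alone, 248246_at for TRY and 259438_at for AN, so these are 2 of 22810 probe sets on the array and 2 of the 13513 that were paired with exactly 1 gene. No other probe set of either gene was there to compare.

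TRY encodes a small single-repeat MYB protein that is known to move from a young trichome, the leaf hair cell, into its neighbours, where it competes for the bHLH partners of the trichome activators and so keeps neighbouring cells from becoming trichomes. Plants without it form clusters of trichomes. AN encodes a plant relative of the animal CtBP/BARS proteins, and plants without it have narrow leaves, altered cortical microtubules in epidermal cells and trichomes with fewer branches. MYB3R proteins, the factors mutated here, are MYB transcription factors known to act on genes of the G2/M transition of the cell cycle. Trichomes are laid down on the young leaf and then leave mitotic division for rounds of DNA replication without division.

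The first leaf pair was sampled from Columbia wild type and from a mutant lacking 3 MYB3R genes (myb3r1 myb3r3 myb3r5, here the triple mutant). Each genotype had 2 arrays at 5 d and 3 arrays at 15 d. Whole 9 d seedlings of 10 genotypes had 1 array each. Besides wild type these were the single mutants myb3r1, myb3r3, myb3r4 and myb3r5, the pairwise combinations myb3r1 myb3r4 and myb3r3 myb3r5, the combinations of 3 genes myb3r1 myb3r3 myb3r5 and myb3r3 myb3r4 myb3r5, and the mutant of all 4 genes. All plants, wild type included, grew without treatment in continuous light at 22 °C on agar with 2% sucrose. The sources used here do not give the alleles or the number of plants per sample, and MYB3R transcripts were not analysed here, so genotypes are as labelled. Nothing says that replicates came from separate plantings, so the p-values reflect the spread between arrays that may be technical repeats, and the number of arrays limits the precision.

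Values are MAS5 signals in linear units on arrays scaled to a common level. Tests used log2 signals with a floor of 33.1, to which lower values were raised, and a call is an adjusted p under 0.05 from limma over 16558 leaf or 19626 seedling probe sets. The 25th percentile of an array was 34.7 to 43.4 in seedlings and 15.4 to 31.5 in leaves, so dim signals ran higher on the seedling arrays, and among the 5 d leaves the highest value was that of triple mutant replicate 2. The summed signal of the 4 measured green leaf markers of 16 listed (RCA, LHCB4.1, LHCB4.2 and LHCB4.3, none at the floor on any array) was 23267 to 29338 in wild-type and 34761 to 40308 in triple mutant leaves of 5 d. At 15 d it was 25355 to 64648 in wild type and 49119, 6584 and 8665 in triple mutant replicates 1, 2 and 3, so those libraries stood apart from each other. The part of these differences in the TRY and AN values was not tested. The root markers EXPA7 and EXPA18, 2 measured of 17 listed, summed to 241 to 389 in seedlings and to at most 92.0 in leaves, with both at the floor on every 15 d array.

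TRY fell as the first leaves matured. In wild type its signal was 127 and 177 on the 5 d arrays and 45.2, 11.9 and 31.2 on the 15 d arrays. Both 5 d values stood above all 15 d values, and 2 of the 3 arrays at 15 d lay under the floor. The group means were 152 ± 35.6 (SD, n = 2) and 29.5 ± 16.7 (SD, n = 3), so that the 15 d mean was 19.4% of the 5 d mean. With folds taken against the floor, TRY was at least 4.09-fold lower at 15 d (log2 change -2.03, SE 0.23, limma adjusted p = 1.1e-04). Leaf probe sets were tested only if they exceeded the floor on all arrays of some group. TRY did so at 5 d alone, so a fall was favoured for it. A fall was called for 27.3% of all probe sets tested in this comparison, and arrays of 15 d stood wholly below those of 5 d for 36.3% of them, so that a fall with age was common in these leaves. In bulk leaves, fewer cells of a type and less RNA per cell cannot be told apart.

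In the triple mutant TRY also fell with age. Its signal was 72.2 and 82.4 at 5 d and 29.0, 9.83 and 18.7 at 15 d. The groups did not overlap, and all 3 arrays at 15 d lay under the floor. The means were 77.3 ± 7.21 (SD, n = 2) and 19.2 ± 9.58 (SD, n = 3). TRY was at least 2.33-fold lower at 15 d (log2 change -1.22, SE 0.23, limma adjusted p = 0.0020), in a comparison where 27.1% of all probe sets tested were called lower and arrays of 15 d stood wholly below for 36.3%. Here too TRY was tested through the 5 d groups, so a fall was favoured. The fall of TRY was called in both genotypes under every alternative run, including without each array in turn.

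The position of TRY within each array, which does not depend on scaling, gave the same order of ages. TRY stood at percentiles 48.7 and 54.5 of the probe sets in 5 d wild-type leaves and at percentiles 19.6 to 32.0 at 15 d. In the triple mutant it stood at percentiles 42.1 and 40.3 at 5 d and at percentiles 18.1 to 26.1 at 15 d.

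**Figure D1:**
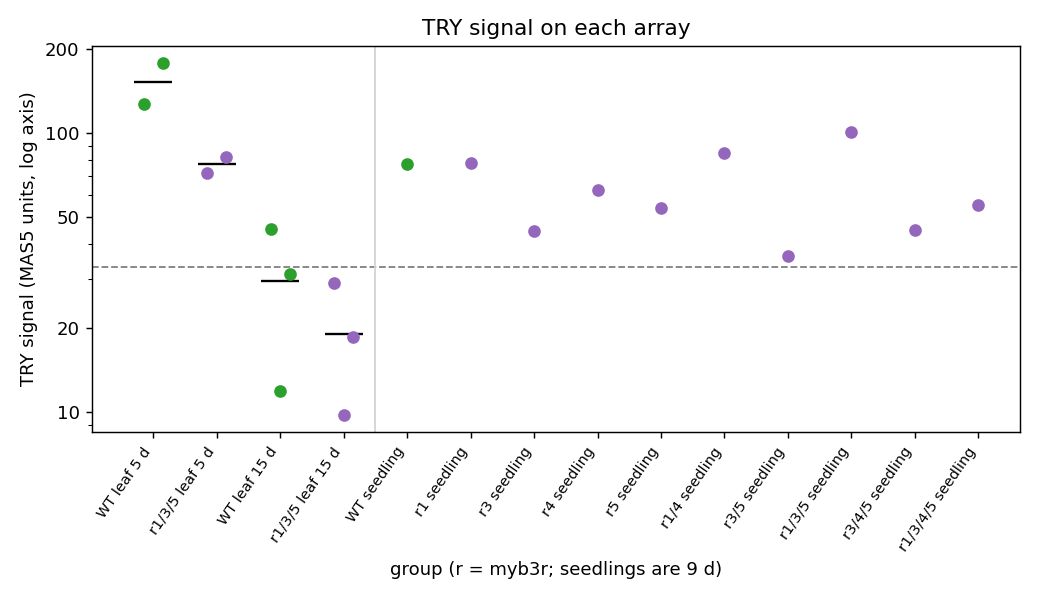
TRY signal in MAS5 units on a log axis for each of the 20 arrays, by group; points are arrays (green wild type, purple mutants), black lines are means of groups with over 1 array, and the dashed line is the floor of 33.1. The 5 d wild-type arrays stand highest at 127 and 177, 5 of the 6 arrays of 15 d leaves lie under the floor, and the seedlings range from 36.2 to 101.

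AN fell with leaf age too. Its signal in wild type was 819 and 1157 at 5 d and 583, 458 and 476 at 15 d. The ages did not overlap, as for 36.3% of all probe sets tested, and no array came near the floor. The means were 988 ± 239 (SD, n = 2) and 506 ± 67.6 (SD, n = 3), so that 51.2% of the 5 d mean was left (log2 change -0.95, SE 0.26, limma adjusted p = 0.013; 27.3% of all probe sets were called lower). That call rested on 5 d wild-type replicate 2, the array with the highest AN signal: without it the log2 change was -0.70 (adjusted p = 0.11).

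In the triple mutant AN was 752 and 921 at 5 d and 461, 385 and 592 at 15 d, without overlap, as again for 36.3% of all probe sets. The means were 836 ± 120 (SD, n = 2) and 479.7 ± 105 (SD, n = 3), with 57.4% of the 5 d mean left (log2 change -0.82, SE 0.26, limma adjusted p = 0.026; 27.1% of all probe sets were called lower). The call was lost without 5 d mutant replicate 1 (adjusted p = 0.054) or 2 (0.15), without 15 d mutant replicate 2 (0.078), and in a fit of the mutant arrays alone (0.059). The sign could not change in these fits, because the ages did not overlap. AN stood at percentiles 80.9 to 86.5 of the array at 5 d and at percentiles 67.3 to 75.8 at 15 d, over both genotypes.

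**Figure D2:**
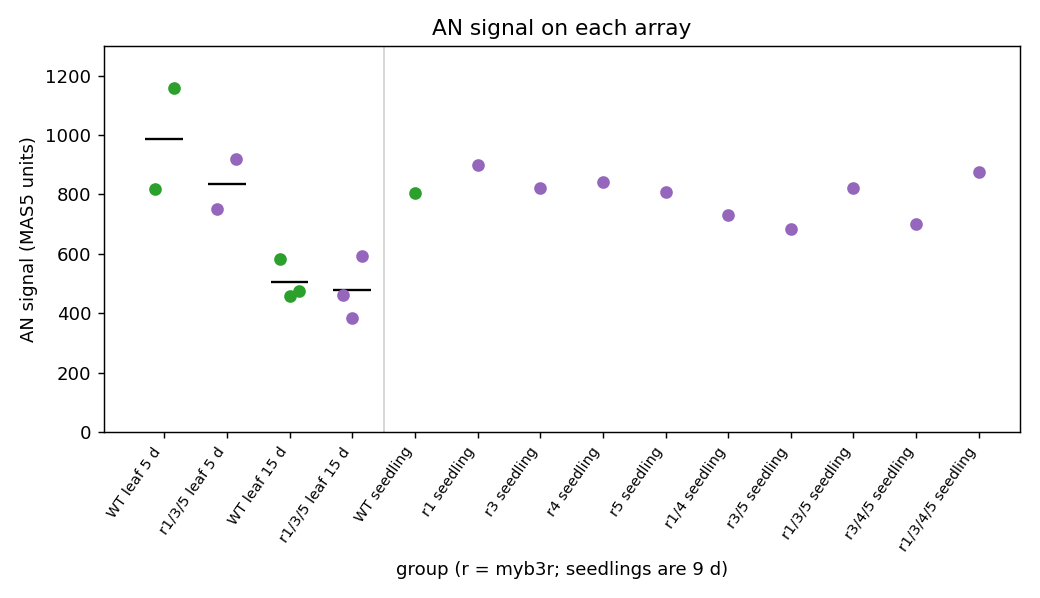
AN signal in MAS5 units on a linear axis for each of the 20 arrays, by group; points are arrays (green wild type, purple mutants) and black lines are means of groups with over 1 array. The 15 d leaves lie at 385 to 592, below the 5 d leaves at 752 to 1157 and below all seedlings at 683 to 899.

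The comparison of triple mutant with wild type asks whether loss of MYB3R1, MYB3R3 and MYB3R5 changes these transcripts at a given leaf age. In 5 d leaves TRY was at 72.2 and 82.4 in the mutant against 127 and 177 in wild type. Both mutant arrays lay below both wild-type arrays, and the mutant reached 0.57 and 0.46 times wild type in the pairs of arrays numbered 1 and 2. The log2 difference was -0.96 (SE 0.25, 95% interval -1.53 to -0.39). Its unadjusted p of 0.0040 in limma became an adjusted p of 0.38 over all probe sets, so TRY was not called. Among all probe sets tested 0.127% were called either way, 0.0181% as lower, and 19.3% had both mutant arrays below both wild-type arrays, so the absence of overlap is a common outcome with 2 arrays per group.

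With each array left out in turn, the difference at 5 d was -1.20 to -0.72. Its sign could not change there, since both mutant arrays lay below both wild-type arrays. With arrays paired by replicate number at each age, where 0.314% of all probe sets were called, TRY again missed the threshold (adjusted p = 0.15). Without triple mutant replicate 2, the 5 d array with the highest 25th percentile, the difference was -1.06.

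At 15 d no fold of TRY can be given between genotypes, because all 3 mutant arrays and 2 of 3 wild-type arrays lay under the floor. The floored log2 difference was -0.15 (SE 0.20, limma adjusted p = 0.92) and rested on wild-type replicate 1, the 1 array above the floor: without it the difference was 0. The signals as deposited were 45.2, 11.9 and 31.2 in wild type and 29.0, 9.83 and 18.7 in the mutant, and they overlapped. In pairs of the same number the ratios of mutant to wild-type deposited signals were 0.64, 0.83 and 0.60, with every mutant value under the floor. After flooring, the log2 differences of those pairs were -0.45, 0 and 0. The paired limma fit gave an adjusted p of 0.66. Values under the floor have no order here.

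AN did not differ between genotypes by more than the spread between arrays. At 5 d the mutant had 752 and 921 against 819 and 1157 in wild type (log2 difference -0.23, SE 0.28, 95% interval -0.87 to 0.42, limma adjusted p = 1). At 15 d it had 461, 385 and 592 against 583, 458 and 476 (log2 difference -0.09, SE 0.23, 95% interval -0.62 to 0.43, limma adjusted p = 0.97). The arrays overlapped at both ages. The intervals leave room for a mutant level from about -0.87 to 0.43 on the log2 scale relative to wild type, so equal levels were not shown. In pairs of the same number at 15 d the mutant was at 0.79, 0.84 and 1.24 times wild type. At 15 d 0.749% of all probe sets were called either way, and 4.7% with that pairing, where AN still was not called (adjusted p = 0.82).

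Whether the fall with age differed between genotypes was tested directly. For TRY the fall was smaller in the mutant by 0.81 on the log2 scale (SE 0.32, 95% interval 0.08 to 1.54), with an unadjusted p of 0.034 and an adjusted p of 0.62 in limma. Since both genotypes were at or near the floor at 15 d, that value is limited by the floor: without a floor it was 0.42 (adjusted p = 0.96). For AN the difference of the age effects was 0.14 (SE 0.37, 95% interval -0.69 to 0.97, limma adjusted p = 0.97). In this comparison 0.344% of all probe sets were called, and 1.09% with arrays paired by replicate number.

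**Figure D3:**
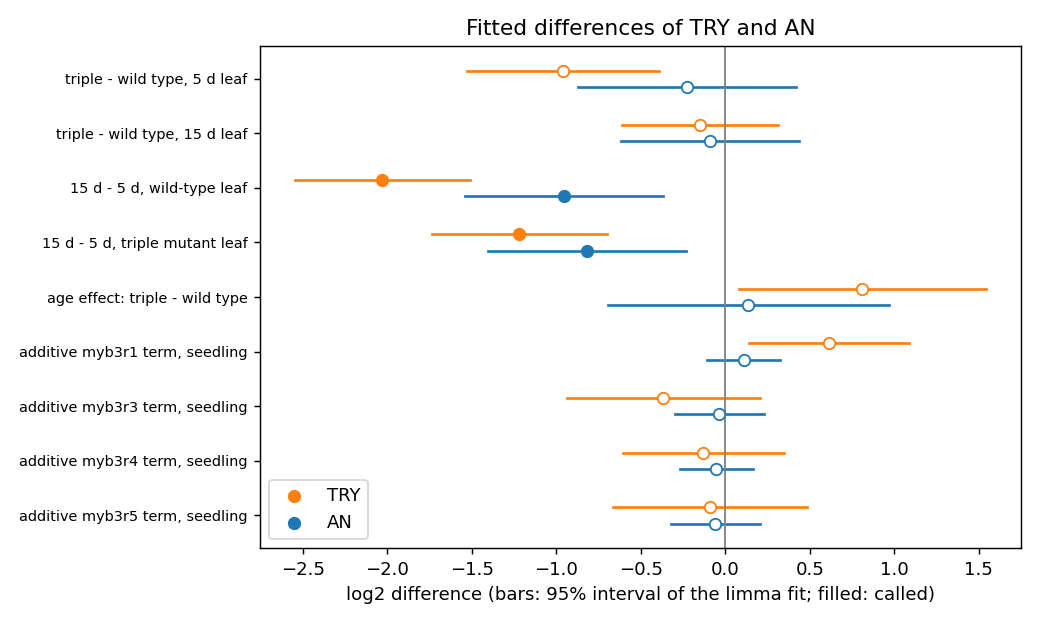
Fitted log2 differences of TRY (orange) and AN (blue) in the 5 leaf comparisons and for the 4 additive mutant terms in seedlings; bars are 95% intervals of the limma fits and filled points passed an adjusted p under 0.05. The 4 filled points are the falls with leaf age, at -2.03 and -1.22 for TRY and -0.95 and -0.82 for AN.

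Across seedling genotypes TRY ran from 36.2 to 101 with a median of 59.0, a span of 2.79-fold, while AN ran from 683 to 899 with a median of 814, a span of 1.32-fold. Each genotype had 1 array, so no single genotype could be tested, and spread between genotypes and between arrays cannot be told apart. Every seedling array had TRY above the floor, at percentiles 22.8 to 38.1 of the array. That floor lay under the 25th percentile of every seedling array (34.7 to 43.4) and above that of every leaf array (15.4 to 31.5). It was thus easier to exceed on seedling arrays. The lowest TRY signal, 36.2 in myb3r3 myb3r5, was under the 25th percentile of its array, 42.8.

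Wild-type seedlings had a TRY signal of 77.7. The myb3r1 mutant was close to this at 78.2 and myb3r1 myb3r4 was at 84.5. The highest signal, 101, was that of myb3r1 myb3r3 myb3r5 (log2 ratio over wild type 0.38). These were the 3 mutants above wild type, myb3r1 by a log2 ratio of only 0.0085, and all of them carry myb3r1. The mutant of all 4 genes also carries myb3r1 and lay below wild type, at 55.1 (0.71 times wild type).

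The other 6 mutants lay below wild type. Among the single mutants TRY was at 44.7 in myb3r3, 54.0 in myb3r5 and 62.8 in myb3r4. The lowest signal of all, 36.2, was that of myb3r3 myb3r5, at 0.47 times wild type, and it was the 1 genotype past a 2-fold difference. In myb3r3 myb3r4 myb3r5 TRY was at 45.0, and in the mutant of all 4 genes at 55.1. Past 2-fold either way lay 2.07% of all probe sets in myb3r3 myb3r5 and 2.61% in myb3r1 myb3r3 myb3r5. The shares were 1.37%, 2.28%, 1.62% and 1.26% in myb3r1, myb3r3, myb3r4 and myb3r5, 1.06% in myb3r1 myb3r4, 1.75% in myb3r3 myb3r4 myb3r5 and 2.21% in the mutant of all 4 genes. The lowest of these TRY signals lie close to the floor of 33.1.

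The genotype of the mutant leaves, myb3r1 myb3r3 myb3r5, thus had the highest TRY of the 10 seedling arrays, while in 5 d leaves it had less TRY than wild type on both arrays. The difference between those observations was not tested.

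AN in seedlings was 806 in wild type. It was lowest in myb3r3 myb3r5 at 683, myb3r3 myb3r4 myb3r5 at 701 and myb3r1 myb3r4 at 732, the 3 mutants below wild type. It was highest in myb3r1 at 899 and in the mutant of all 4 genes at 877. The other 4 mutants lay between 808 and 841. No mutant was past 2-fold, and log2 ratios over wild type ran from -0.24 to 0.16.

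The fit with 1 additive term for each mutant allele pools genotypes that share an allele. For TRY the myb3r1 term was 0.61 (SE 0.21, 95% interval 0.14 to 1.09), with an unadjusted p of 0.018 and an adjusted p of 0.43 in limma. The myb3r3 term was -0.37 (SE 0.25, adjusted p = 0.66), the myb3r4 term -0.13 and the myb3r5 term -0.09 (both with adjusted p over 0.9). The myb3r1 term was 0.31 without the myb3r1 myb3r3 myb3r5 array, which has the highest TRY signal, and 0.54 to 0.77 without any other array. For AN the 4 terms lay between -0.06 and 0.11, with adjusted p of 0.73 to 0.96. Neither gene was called for any allele. Of all probe sets 0% were called for myb3r1 and for myb3r5, 0.0051% for myb3r3 and 0.0153% for myb3r4, while 1106 to 2049 had an unadjusted p under 0.05 in limma.

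**Figure D4:**
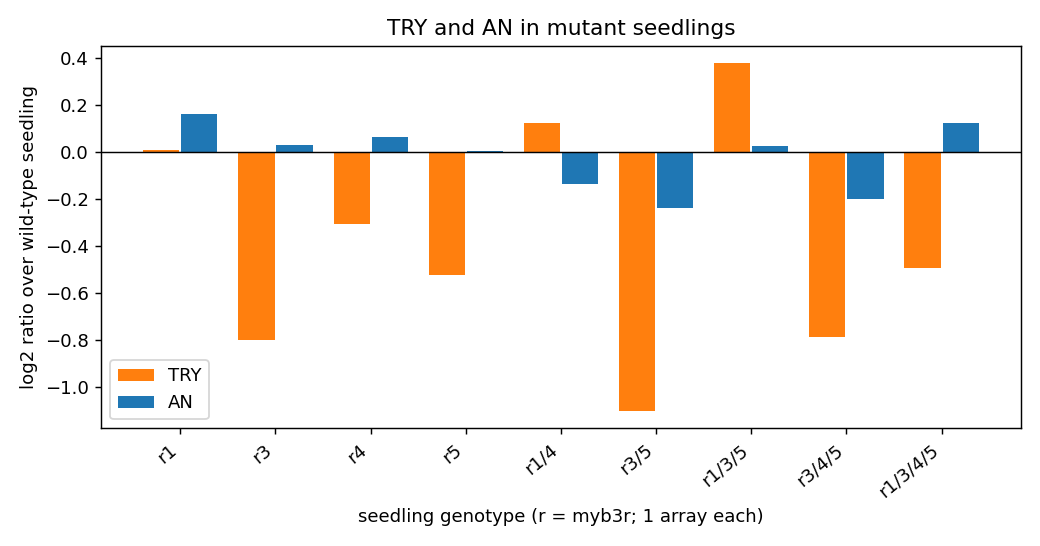
Log2 ratio of TRY (orange) and AN (blue) in each of the 9 mutant seedling arrays over the 1 wild-type seedling array, with no error because each genotype has 1 array. TRY ranges from -1.10 in myb3r3 myb3r5 to 0.38 in myb3r1 myb3r3 myb3r5, and AN from -0.24 to 0.16.

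Ordered by mean signal over all 14 groups, TRY was highest in 5 d wild-type leaves, whose lower array (127) was above every array of the other groups. The seedlings of myb3r1 myb3r3 myb3r5, myb3r1 myb3r4, myb3r1 and wild type came next, then the 5 d triple mutant leaves, then the other seedlings. Wild-type seedlings at 77.7 lay within the range of the 5 d triple mutant leaves, 72.2 to 82.4, and these neighbours did not differ beyond their spread. By position on the array the order was different: those leaves had TRY at percentiles 40.3 and 42.1, above every seedling at 22.8 to 38.1, so no order between them and the seedlings was settled. By mean signal the 15 d leaves were last, and wild type and mutant overlapped there. By position on the array, 15 d wild type (percentiles 19.6 to 32.0) and mutant (18.1 to 26.1) overlapped the seedlings, so last place was not settled. The highest wild-type array at 15 d (45.2) lay above the 3 lowest seedlings.

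For AN the 5 d leaves of both genotypes overlapped with each other and with the seedlings, so no order among them was shown. The 15 d leaves were the lowest of the 14 groups, and their highest array, at 592, lay below the lowest seedling at 683. Wild-type and triple mutant leaves of 15 d overlapped.

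TRY and AN tracked each other across leaf arrays, with a Pearson correlation of 0.93 over the 10 leaf arrays, which share the age difference. It was 0.81 over all 20 arrays and 0.44 over the 10 seedlings. Among 9478 other named probe sets that exceeded the floor on 10 or more arrays, those most like TRY over the 20 arrays were AT3G25970 (r = 0.89) and AT1G23000 (r = 0.88), followed by AT1G14810, AT2G25100 and AT2G20480 at 0.87 to 0.86. AT1G23000 had a mean signal of 352 in 5 d and 25.4 in 15 d wild-type leaves, and 220 and 15.0 in the triple mutant. Most opposed to TRY was AT5G16200 (r = -0.91), at 114 and 273 in wild type and 173 and 292 in the mutant at 5 d and 15 d.

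Most like AN were AT5G62710, AT3G02490, AT5G26850, AT3G09670 and AT3G09730, with correlations of 0.94 to 0.93. AT5G62710 had a mean of 806 in 5 d and 59.5 in 15 d wild-type leaves and 635 and 63.8 in the mutant. Most opposed was AT2G19880 (r = -0.95), at 339 and 911 in wild type and 405 and 988 in the mutant. All 20 arrays include the leaf ages, and over the 10 seedlings alone AT3G02490 had a correlation with AN of 0.20 and AT2G19880 one of 0.013, while AT3G25970 had one with TRY of 0.78.

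Of 94 genes on 5 lists of trichome and leaf shape genes, 15 had a named probe set, TRY and AN among them. Most of the 15 fell with leaf age. In wild type 11 fell and 1 rose, with a median log2 change of -1.22 against -0.01 over all probe sets. In the triple mutant 9 fell and 1 rose, with a median of -0.86 against -0.05. Of all probe sets 27.3% fell and 24.9% rose in wild type, and 27.1% fell and 25.9% rose in the mutant. TRY, ATMYC1, GIS and BLT exceeded the floor on all arrays of a group at 5 d alone. They were tested through those groups, so falls were favoured for them. The count of falls in wild type was 7 without either 5 d wild-type array, and in the mutant it was 4 without 5 d mutant replicate 1.

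Among the activators of trichome fate, both measured genes fell. Both were tested only through their 5 d groups, so falls were favoured for them. A fall was called for 27.3% of all probe sets in wild type and 27.1% in the mutant. ATMYC1, a bHLH gene related to the TRY-binding partners of the trichome activators, had a mean signal of 1004 ± 107 (SD, n = 2) at 5 d and 40.5 ± 29.0 (SD, n = 3) at 15 d in wild type. It was at least 23.2-fold lower there (limma adjusted p = 2.3e-05) and at least 25.3-fold lower in the mutant (adjusted p = 3.5e-05), with 2 of 3 arrays at the floor in each. GIS, a zinc-finger gene that promotes trichome initiation, was at 159 ± 17.2 (SD, n = 2) and 49.7 ± 32.2 (SD, n = 3) in wild type (log2 change -1.56, adjusted p = 0.028) and at 323 ± 29.9 and 47.4 ± 43.7 in the mutant. There it was at least 6.82-fold lower at 15 d (adjusted p = 0.0018). In wild type GIS did not pass (adjusted p = 0.062 to 0.14) when any of 4 arrays was left out: either wild-type array of 5 d, replicate 3 of wild type at 15 d, or replicate 1 of the mutant at 5 d. It also missed the threshold without a floor (adjusted p = 0.087) and without the filter on dim probe sets (adjusted p = 0.067), and 1 of its 3 wild-type arrays at 15 d lay at the floor.

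Among genes of trichome endoreduplication, SIM, a cyclin-dependent kinase inhibitor that keeps trichomes single-celled, fell by 1.14 on the log2 scale in wild type (adjusted p = 0.0089) and by 1.29 in the mutant (adjusted p = 0.0049). In wild type it did not pass without replicate 1 of 5 d (adjusted p = 0.082). BIN4, of the DNA topoisomerase VI complex, fell by 1.26 in wild type (adjusted p = 0.017, but 0.13 without 5 d wild-type replicate 1) and had a change of -0.38 in the mutant (adjusted p = 0.41). SPY, a regulator of gibberellin signalling, had changes of -0.54 and 0.23 and was not called. With arrays of both ages paired by replicate number it was called in wild type (log2 change -0.85, limma adjusted p = 0.036). No label links the arrays of 5 d to those of 15 d, so that pairing is arbitrary.

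Of 7 measured genes of trichome branching and the cytoskeleton, AN included, 5 fell in each genotype and none rose. Falls were called for 27.3% of all probe sets in wild type and 27.1% in the mutant. One of the 5, BLT, was tested only through its 5 d groups, so a fall was favoured for it. BLT, required for trichome branching, was at least 3.63-fold lower at 15 d in wild type (adjusted p = 0.0020) and at least 2.70-fold lower in the mutant (adjusted p = 0.0078). Without a floor BLT was not called in wild type (log2 change -3.01, SE 1.17, adjusted p = 0.056). TON1B, which acts on the cortical microtubule array, had log2 changes of -1.32 (adjusted p = 0.0025) and -0.86 (adjusted p = 0.020). SPK1, a ROP GTPase activator, had changes of -1.22 (adjusted p = 0.024) and -1.39 (adjusted p = 0.013), and PIR121 of the SCAR/WAVE complex had changes of -0.89 (adjusted p = 0.024) and -0.86 (adjusted p = 0.027).

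SPK1 and PIR121 each lost their calls without several arrays: SPK1 in wild type without any 1 of 5 arrays (both of wild type at 5 d, replicates 2 and 3 of wild type at 15 d, replicate 1 of the mutant at 5 d), and in the mutant without either 5 d mutant array. SPK1 in wild type also missed the threshold in the fit of wild-type arrays alone (adjusted p = 0.053). PIR121 lost it in wild type without 5 d replicate 2 or 15 d replicate 2 or 3, and in the mutant without either 5 d mutant array or 15 d mutant replicate 2 or 3. In the mutant TON1B lost its call without 5 d mutant replicate 1 (adjusted p = 0.14) or 15 d mutant replicate 3 (adjusted p = 0.056) and in the fit of mutant arrays alone (adjusted p = 0.058), and BLT without 5 d mutant replicate 1 (adjusted p = 0.082). The others, POR and BRK1, did not pass (for BRK1 log2 changes of -0.66 and -0.80, adjusted p = 0.099 and 0.053). BRK1 passed in both genotypes with arrays of both ages paired by replicate number, which no label links (limma adjusted p = 0.034 and 0.019). In the mutant it also passed with quantile normalization (0.038), a stricter filter (0.048), no variance trend (0.046) and without 15 d mutant replicate 3 (0.019). PIR121, POR and BRK1 fall outside the rule for named genes and were chosen after their values were seen.

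Among leaf shape and size genes ARL, which promotes cell expansion, went the other way. It rose 4.49-fold in wild type, from 279.6 ± 51.6 (SD, n = 2) to 1255 ± 203 (SD, n = 3; limma adjusted p = 4.1e-04), and 5.46-fold in the mutant (adjusted p = 2.6e-04). SPT, a bHLH gene that restrains leaf growth, fell by 1.31 in wild type, from 325 ± 1.93 to 131 ± 8.20 (adjusted p = 0.0011). In the mutant it was at 206 ± 10.6 and 207 ± 24.8, with a change of -0.00 (adjusted p = 1). The difference between those age effects of SPT was 1.31 (SE 0.31, unadjusted p = 0.0024, adjusted p = 0.23 in limma). It was called without 15 d mutant replicate 1 (1.41, adjusted p = 0.048), a fit that keeps the 2 mutant arrays with low green leaf markers. The share of all probe sets called in that fit is not given here.

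**Figure D5:**
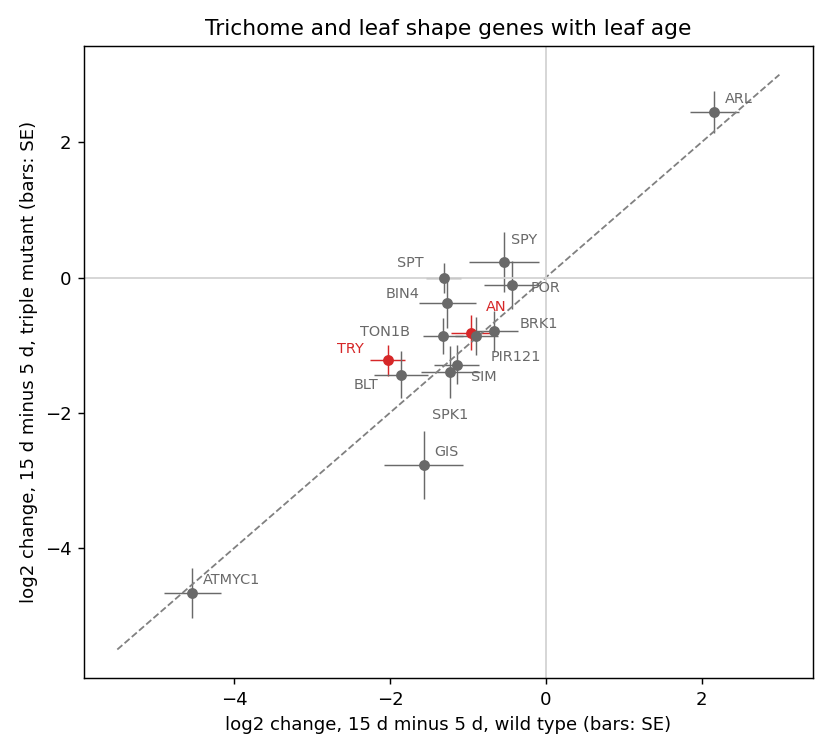
Log2 change from 5 d to 15 d in wild type (horizontal) and in the triple mutant (vertical) for the 15 measured trichome and leaf shape genes, with TRY and AN in red; bars are standard errors of the limma fit and the dashed line marks equal changes. Most genes lie at negative values on both axes, ATMYC1 is lowest at -4.54 and -4.66, and ARL is highest at 2.17 and 2.45.

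Between genotypes none of the 15 was called, with limma, at 5 d, at 15 d or for the difference of age effects. At an unadjusted p under 0.05 in limma there were 2 at 5 d, 1 at 15 d and 2 for the difference. These were TRY and SPT, SPT, and TRY and SPT. Among all 16558 probe sets tested, 859, 1461 and 1208 had such a p in the same comparisons, so such values were common. At 15 d ARL was called as higher in the mutant without 15 d mutant replicate 1 (log2 difference 0.90, adjusted p = 0.046). That array had a green leaf marker sum of 49119, against 6584 and 8665 in the mutant arrays that remained. The share of all probe sets called in that fit is not given here, and calls moved widely when 1 array was left out. The genotype comparisons and the age comparisons share arrays.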

How the data were processed

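RNA of 20 samples was measured on Affymetrix arrays from biotin-labelled cRNA, per the labels' protocols. The deposited files hold 1 linear intensity value for each probe set on each array, computed by the authors with MAS5 per the submitters' processing notes (no version given). The 2% trimmed mean was 500.04 to 500.06 on every array, so the authors had scaled the arrays alike. Detection calls were not used here. Such signals are imprecise near background.

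Each array was rescaled to that trimmed mean, values under a floor (the median over arrays of the 25th percentile) were raised to it and log2 was taken. Leaf probe sets that exceeded the floor on all arrays of some group were fitted with limma 3.58.1 (R 4.3.3), 1 mean for each group, a variance trend and 6 residual degrees of freedom. The seedling fit had 5. P-values were two-sided, with Benjamini-Hochberg adjustment. Figures used matplotlib 3.10.9 under Python 3.11.15. The fits were tested on simulated data.

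Names came from the supplied probe annotation and a gene table of assembly TAIR10.1; of 22810 probe sets 13513 had 1 gene, 503 several, 8730 were unnamed here and 64 were controls; 13436 matched the table. Named genes were the members, the 5 most and 5 least correlated probe sets, and list members: all where at most 6 were measured, otherwise the 3 largest called rises and falls. The members and lists were chosen with earlier results of these data known. At 15 d same-numbered arrays deviated together from their group means (r = 0.73, 0.60 and 0.57), so pairing by number within age was run as an alternative. Wild-type replicate 3 with mutant replicate 2 (r = 0.42) and wild-type replicate 2 with mutant replicate 3 (r = 0.15) also deviated together. At 5 d, with 2 arrays per group, r could only be a single value of either sign (0.48 for same numbers, -0.48 for others). Pairing across ages was not examined in this way.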

Additional observations from a re-analysis of the deposited data

Results flagged for a closer look

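The direction of the triple mutant over wild type was opposite in 5 d leaves and in 9 d seedlings for both genes. For TRY the mean log2 difference was -0.96 over the 2 leaf pairs and 0.38 for the 1 pair of seedling arrays, which are 1.34 apart. For AN it was -0.23 (SE 0.28) and 0.03, which are 0.25 apart, and the leaf value was 0.022, of the same sign as in seedlings, without 5 d wild-type replicate 2. Neither difference was tested, since the seedlings have 1 array per genotype, and age and tissue differ together between those samples. No group had the 4 arrays needed to look for an outlying sample.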

How the results depend on the processing

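The alternatives were no floor, quantile normalization, no filter and a stricter filter, no variance trend, fits of 1 age or genotype, pairing by replicate number (replicate block) and leaving out each array. Pairing changed no call of TRY or AN (with the replicate block within each age TRY stayed at -0.96 at 5 d, adjusted p = 0.15). Of 173 leaf values of TRY and AN, 162 neither changed sign nor crossed the threshold (1 of them, TRY between genotypes at 15 d without wild-type replicate 1, was exactly 0), 5 lost their call and 6 changed sign; of 112 seedling values 107 kept both and 5 changed sign. Many leaf values could not change sign, since other filters, no variance trend, fits of 1 age or genotype and the block within each age keep the estimate. Leaving out an array of a group outside the comparison keeps it too. The fall of AN in the mutant lost its call with only mutant arrays (-0.82). The floor matters to TRY at 15 d: without it the genotype difference was -0.53 and the falls were -2.50 and -2.07.

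With each array left out in turn, AN ranged from -0.48 to 0.022 between genotypes at 5 d, from -0.25 to 0.056 at 15 d, from -1.20 to -0.70 with age in wild type and from -0.98 to -0.67 in the mutant, and from -0.11 to 0.39 for the difference of age effects. In seedlings the AN terms ranged from -0.13 to 0.062 (myb3r3), -0.12 to 0.030 (myb3r4) and -0.16 to 0.039 (myb3r5), and the TRY terms from -0.25 to 0.093 (myb3r4) and -0.30 to 0.11 (myb3r5). The pairing across ages brought SPY in wild type and BRK1 in both genotypes past the threshold. With age in the mutant SPY ranged from -0.066 to 0.53 (-0.082 with the replicate block across ages), POR from -0.20 to 0.026 and SPT from -0.058 to 0.10; none was called. Fewer samples apart, the cause was not tested.

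Calls over all probe sets numbered 21 between genotypes at 5 d (1 to 75 under other settings, 4 to 523 without 1 array), 124 at 15 d (67 to 779, 72 to 1414) and 57 for the difference of age effects (34 to 181, 8 to 564). For alleles in seedlings they were 0 to 3, and up to 43 under other settings. Other probe sets of each gene, TRY with only 15 d arrays, and the difference of age effects within 1 age or genotype gave no value. Arrays per group, and TRY signals close to the floor, limit what can be seen.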
